A study of Mus musculus with 78 samples.

Results

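The genes described here are 10 genes of cell adhesion, cell polarity and the cell cortex that are known for their part in compaction of the mouse embryo. They are Cdh1, Ctnnb1 and Ctnna1 of the adherens junction, Pard3, Pard6b, Prkci and Prkcz of the Par complex, and Ezr, Rhoa and Myh9 of the cortex. Members were the rows whose Entrez identifier is that of one of these symbols, and all 10 were found in both the 4-cell and the 8-cell gene table, among 13604 genes listed in both. The 4-cell table listed 15218 genes in 24 blastomeres, and 15342 genes in 26 blastomeres were listed for the 8-cell stage.

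The libraries were made from single blastomeres by Smart-seq2, a protocol that copies full-length polyadenylated RNA. The embryos came from a cross of 2 mouse strains. The first carries CAG-Brainbow2.1, a multicolour reporter cassette, at the Rosa26 locus, and the other carries CAG-cre/Esr1*, a Cre recombinase that tamoxifen activates. Both transgenes are driven by the CAG promoter, which is active in most cell types. Embryos of both stages carried 1 copy of each transgene and were collected as 2-cell embryos at 46 h post injection. They received 4-Hydroxytamoxifen for 2 h in KSOM medium and were then cultured in vitro. No group without the transgenes or the treatment was compared. For sequencing the zona was removed with acid and the blastomeres were separated with trypsin. The labels list 36 blastomeres from 9 embryos at the 4-cell stage and 31 from 4 embryos at the 8-cell stage, and they give a lineage to 24 of the former, from 6 embryos, and to 26 of the latter, from 4, numbers that equal those of the table columns. The headings of the table columns match no single labelled sample, so no blastomere was assigned to an embryo or to a sister lineage. Each stage was therefore treated as 1 sample, differences between the stages were not tested, and all spreads and ranges are between cells. Stage cannot be told apart from embryo. The sources used here name no batches of library preparation, and the part of any batch in the differences was not tested. Embryos of 5 and 6 cells were not analysed here.

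Compaction is the step at the 8-cell stage in which loosely touching blastomeres flatten against each other. E-cadherin, the product of Cdh1, binds neighbouring cells and is tied to the actin cortex through beta-catenin and alpha-catenin, the products of Ctnnb1 and Ctnna1. In the same period each blastomere forms an apical domain on its outer side, where Par3 and Par6 proteins, an atypical protein kinase C and the membrane-cortex linker ezrin gather. RhoA and non-muscle myosin II drive contraction of the cortex. Much of this machinery is known to be controlled through protein position and phosphorylation, which RNA levels do not show.

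By RefSeq coordinates on GRCm38.p6 (mm10), the adhesion genes Cdh1 at chr8:106603350-106670247 and Ctnnb1 at chr9:120933400-120960507 lie on the plus strand, as does Ctnna1 on chromosome 18. Pard3 at chr8:127063381-127612286, Pard6b at chr2:168081004-168101203 and Prkci at chr3:30995742-31052740 are on the plus strand too, and Prkcz at chr4:155260118-155361428 is on the minus strand. Of the cortex genes, Rhoa at chr9:108306160-108337943 is on the plus strand, and Ezr at chr17:6738131-6782780 and Myh9 at chr15:77760585-77842175 are on the minus strand. The exons of a member cover 2455 (Rhoa) to 8550 (Pard3) bases, and no other curated gene shares an exon base with a member.

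The 50 libraries differed in depth. The number of fragments behind the FPKM values (fragment counts scaled by transcript length and by the library's total) was estimated at 6870000 to 16890000 per blastomere at the 4-cell stage, with a median of 13360000, and at 2340000 to 21750000 at the 8-cell stage, with a median of 17250000 (to the nearest 10000). Genes above FPKM 1, the threshold used for detection, numbered 3009 to 8276 per blastomere at the 4-cell stage and 3548 to 8078 at the 8-cell stage. Libraries poor in genes occurred at both stages, and 4 of the 4-cell and 6 of the 8-cell libraries held fewer than 0.8 times the median number of their stage. This cut was chosen after seeing the data, and the planned cut of 0.5 times the median left out 1 and 0 libraries. The 8-cell libraries on either side of the 0.8 cut held 5391 and 5884 genes. The 6 8-cell libraries below it are adjacent columns, S53 to S58. They may all come from 1 embryo, which leaving them out would then remove, and this was not tested. For Cdh1, Pard3, Pard6b, Prkci, Ezr and Myh9, and for the sets of junction, Par and ezrin family genes, counts at FPKM 1 are given with and without the libraries poor in genes. No heading occurred in both tables and no columns were identical. Of 6 blastomere genes, Dppa3, Pou5f1 and Khdc3 were above FPKM 1 in all 26 8-cell libraries and in 24, 21 and 21 of the 4-cell libraries, while Nlrp5, Ooep and Zar1 were above it in 17, 11 and 2 of the 4-cell and 9, 9 and 2 of the 8-cell libraries. Of 8 markers of cumulus or granulosa cells 3 were listed in the 4-cell table and 2 in the other, with a summed level of 0 to 3.06 and 0 to 1.66 FPKM, and none of 3 blood markers, Ptprc among them, was listed. The 5 oocyte markers, which blastomeres and polar bodies inherit, summed to 0.0818 to 220 FPKM at the 4-cell stage and 13.4 to 212 FPKM at the 8-cell stage, with medians of 93.9 and 52.9 FPKM. Of these Gdf9 had medians of 4.39 and 0 FPKM, and the part of this list in the member levels was not tested.

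Adhesion genes were present in most blastomeres of both stages, the Par complex was present in parts, and ezrin was largely at 0. The difference between the stages is given as the median of log2(FPKM+1) over the 8-cell blastomeres minus that over the 4-cell blastomeres, and a gene was called when the difference reached 1, a doubling or halving of FPKM+1. Of the 10 genes 0 were called higher at the 8-cell stage, where 9.71% of all 7248 genes examined were called higher. Of the 10 genes 1, Pard3, was called lower, where 18.2% of all genes examined were called lower. The genes examined were those above FPKM 1 in at least 50% of the blastomeres of either stage, and 6 of the 10 members met this rule, Pard3 only through its 4-cell values. The median difference over all 10 members was 0.00, with 6 above 0 and 3 below, and over all genes examined it was −0.11, which became 0.01 after quantile normalization.

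**Figure D1:**
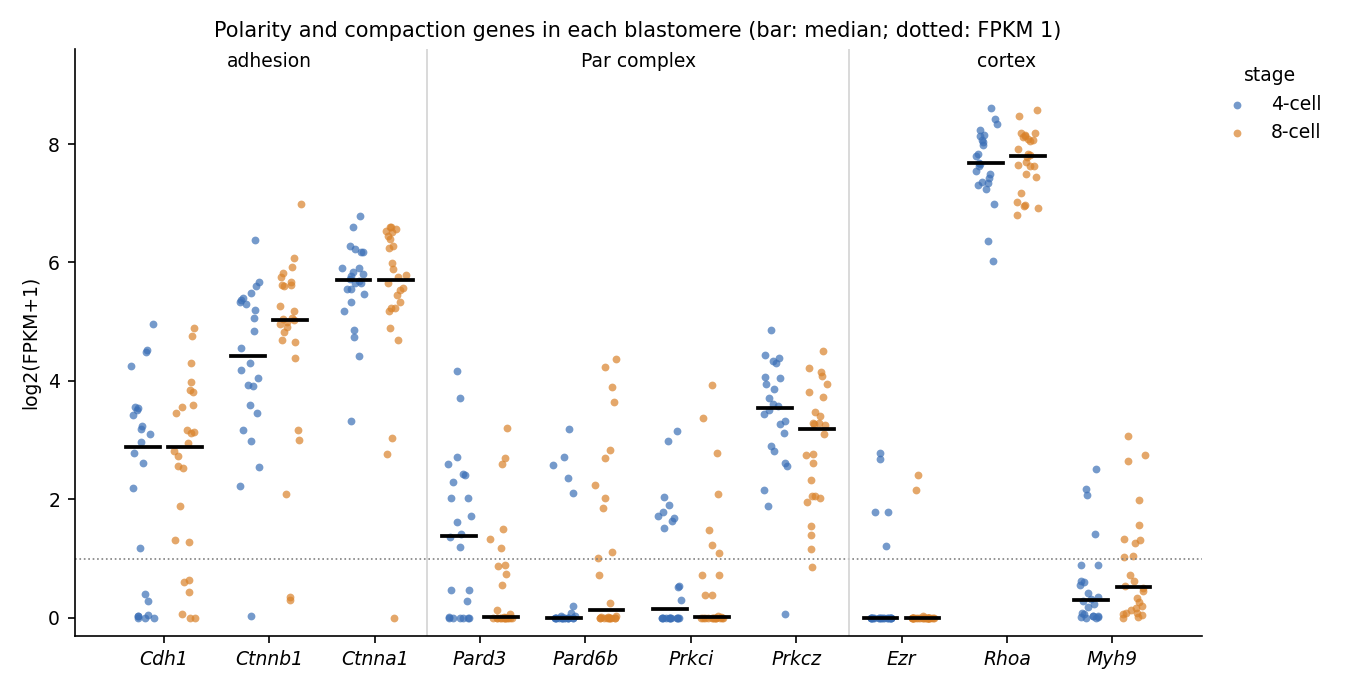
Each point is the level of a gene in 1 blastomere, as log2(FPKM+1), for 24 4-cell (blue) and 26 8-cell (orange) blastomeres, with the median as a bar and FPKM 1 as a dotted line. The median of Rhoa lies above those of the other members at both stages, while the points of single blastomeres overlap between genes. Ezr lies at 0 in 19 of 24 and 23 of 26 blastomeres, and the median of Pard3 drops to the floor at the 8-cell stage.

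Levels in FPKM are per length and can be set beside each other. By median level at the 4-cell stage the order was Rhoa (203), Ctnna1 (51), Ctnnb1 (20.6), Prkcz (10.6), Cdh1 (6.36), Pard3 (1.62), Myh9 (0.235), Prkci (0.117), and Pard6b and Ezr (both 0). At the 8-cell stage it was Rhoa (221), Ctnna1 (51.1), Ctnnb1 (31.8), Prkcz (8.09), Cdh1 (6.4), Myh9 (0.438), Pard6b (0.104), Prkci (0.00604), Pard3 (0.00564) and Ezr (0). The 8-cell medians of Prkci and Pard3 stood for 0.501 and 0.524 fragments, so the order of these 2 carries no information. The middle 50% of the blastomeres did not overlap between Rhoa and Ctnna1 at either stage, nor between Ctnna1 and Ctnnb1 at the 4-cell stage. They also did not overlap between Ctnnb1 and Prkcz at the 8-cell stage, and they overlapped between all other neighbours in these orders. The first 5 members were the same at both stages.

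Cdh1 encodes E-cadherin, the homophilic adhesion molecule of the early embryo. Its level ran from 0 to 30.3 FPKM at the 4-cell stage with a median of 6.36, and from 0 to 28.7 FPKM at the 8-cell stage with a median of 6.4. The ranges of the stages overlapped almost entirely, and the difference was 0.01 on the log2 scale with a spread between blastomeres of 1.74 (SD, 24 blastomeres) and 1.52 (SD, 26 blastomeres). It exceeded FPKM 1 in 16 of 24 blastomeres (66.7%, exact 95% interval 44.7% to 84.4%) and in 20 of 26 (76.9%, 56.4% to 91%). The intervals of these shares cover counting error only. Without the libraries poor in genes the counts were 14 of 20 and 18 of 20. In the 4-cell blastomeres at or below FPKM 1 the gene was at 0 in 3 and low in 5, and in the 8-cell ones at 0 in 2 and low in 4.

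Ctnnb1 encodes beta-catenin, which joins the cadherin tail to alpha-catenin and also serves Wnt signalling. Its level ran from 0.0206 to 82.7 FPKM at the 4-cell stage with a median of 20.6, and from 0.235 to 126 FPKM at the 8-cell stage with a median of 31.8. The difference was 0.61 on the log2 scale, beside a spread between single blastomeres of 1.41 and 1.62 (SD), which is not the error of the difference. With 1 blastomere left out at a time the difference was 0.48 to 0.74. The gene was above FPKM 1 in 23 of 24 and 24 of 26 blastomeres. Beta-catenin RNA exceeded that of Jup, its close relative plakoglobin, in 22 of the 24 4-cell blastomeres and in 23 of the 25 8-cell blastomeres with the sum of both above FPKM 1. Jup had medians of 6.02 and 6.05 FPKM.

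Ctnna1 encodes alpha-catenin, the actin-binding part of the junction. It had the same median at both stages, 51 and 51.1 FPKM, with a range of 9.01 to 109 FPKM at the 4-cell stage and of 0 to 96.4 FPKM at the 8-cell stage. All 24 4-cell blastomeres and 25 of 26 8-cell blastomeres were above FPKM 1. Its spread on the log2 scale was 0.73 (SD) at the 4-cell stage, where 10.8% of the expressed genes had a smaller one, and 1.47 at the 8-cell stage, where 48.9% had a smaller one and 1 blastomere was at 0. That blastomere held 4263 genes above FPKM 1 from an estimated 12580000 fragments, and its Ctnnb1 level, 126 FPKM, was the highest of all 50. It was singled out after its values were seen. The other alpha-catenin genes added little, since Ctnna1 made up a median of 100% of the summed FPKM of Ctnna1, Ctnna2 and Ctnna3 at both stages.

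Cdh1 was higher than Ctnna1 in 0 of 24 4-cell blastomeres (up to 14.2% by the exact interval) and in 1 of 26 8-cell blastomeres. Without the libraries poor in genes the count was 0 of 20 at both stages. Ctnnb1 was higher than Ctnna1 in 6 of 24 and 6 of 26, and in 6 of 20 and 3 of 20 without the libraries poor in genes. All 3 adhesion genes exceeded FPKM 1 together in 16 of 24 blastomeres (66.7%) and in 18 of 26 (69.2%, 48.2% to 85.7%), and at the 4-cell stage the 8 blastomeres outside this count are those with Cdh1 at or below FPKM 1. The counts were 14 of 20 and 17 of 20 without the libraries poor in genes. Of the other classical cadherins, Cdh2 had a median of 0 at both stages, and Cdh3, known as P-cadherin, exceeded FPKM 1 in 7 of 24 and 2 of 26 blastomeres.

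Pard3 encodes the scaffold Par3, which recruits the rest of the complex to cell contacts and the apical side. It was the only member called. Its level ran from 0 to 17 FPKM at the 4-cell stage with a median of 1.62, and from 0 to 8.27 FPKM at the 8-cell stage with a median of 0.00564. The ranges overlapped. It exceeded FPKM 1 in 14 of 24 blastomeres (58.3%, 36.6% to 77.9%) and then in 6 of 26 (23.1%, 8.97% to 43.6%), and it was at 0 in 6 and 13. Above FPKM 5 the shares were 16.7% and 11.5%. The change in share at FPKM 1 was −35.3 percentage points, and the gene was among those examined through its 4-cell values, which favours a fall. Without the libraries poor in genes the counts were 13 of 20 and 6 of 20. The median difference was −1.38. With means of log2(FPKM+1) it was −0.76, from the ratio of mean FPKM −0.93, and after quantile normalization −0.96, so the call was lost in these 3 settings while the sign was kept. Among blastomeres above FPKM 1 the median level was 3.48 FPKM at the 4-cell and 3.45 FPKM at the 8-cell stage. Pard3b, its paralogue, was listed at the 4-cell stage only, with a highest level below FPKM 1.

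Pard6b encodes one of 3 Par6 adaptors that link Cdc42 to atypical protein kinase C. Its median was 0 at the 4-cell stage, with a range of 0 to 8.13 FPKM, and 0.104 at the 8-cell stage, with a range of 0 to 19.7 FPKM. It was above FPKM 1 in 5 of 24 blastomeres (20.8%, 7.13% to 42.2%) and in 11 of 26 (42.3%, 23.4% to 63.1%). The change in share was 21.5 percentage points. Columns with Pard6b above FPKM 1 were not spread evenly. At the 4-cell stage they lay between S2 and S10, and no column from S11 to S24 was above it. At the 8-cell stage every column from S48 to S52 was above FPKM 1, and no column from S53 to S58. The part of the embryo in this was not tested. The difference of medians was 0.14, whereas the ratio of mean FPKM gave 1.05, quantile normalization 1.20, and the comparison without libraries poor in genes 1.06, all past the threshold. With 1 blastomere left out at a time the difference of medians was 0.03 to 0.25, and without the columns headed NA it was 0.02. The level of Pard6b had a Spearman correlation of 0.70 over 24 and 0.57 over 26 blastomeres with the number of genes above FPKM 1. The part of this in its shares was not tested. Without the libraries poor in genes it was above FPKM 1 in 5 of 20 and 11 of 20.

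Different Par6 genes led in different blastomeres. At least 1 of Pard6a, Pard6b and Pard6g exceeded FPKM 1 in 12 of 24 blastomeres (50%, 29.1% to 70.9%) and in 17 of 26 (65.4%, 44.3% to 82.8%), and without the libraries poor in genes in 12 of 20 and 15 of 20. Among these, Pard6a was the highest in 7 and Pard6b in 4 at the 4-cell stage, and in 9 and 8 at the 8-cell stage. Pard6a had medians of 0.309 and 1.48 FPKM, and Pard6g exceeded FPKM 1 in 2 and 1 blastomeres.

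The atypical protein kinases C are the catalytic part of the complex. Prkcz, which encodes the zeta isoform, ran from 0.0446 to 28.1 FPKM at the 4-cell stage with a median of 10.6, and from 0.822 to 21.6 FPKM at the 8-cell stage with a median of 8.09. It was above FPKM 1 in 23 of 24 and 25 of 26 blastomeres. Its difference was −0.36, beside spreads of 1.03 and 1.02 (SD) between single blastomeres. With 1 blastomere left out at a time the difference was −0.43 to −0.28. Prkci, which encodes the iota or lambda isoform, ran from 0 to 7.93 FPKM with a median of 0.117, and from 0 to 14.2 FPKM with a median of 0.00604. It was above FPKM 1 in 9 of 24 blastomeres (37.5%, 18.8% to 59.4%) and in 7 of 26 (26.9%, 11.6% to 47.8%), and without the libraries poor in genes in 9 of 20 and 6 of 20. Its level was therefore the lower of the pair in most cells, and Prkcz made up a median of 97.8% of their summed FPKM in the 4-cell blastomeres and 99.9% in those of the 8-cell stage. Prkci was the higher in 1 blastomere of each stage, at 6.93 against 3.49 FPKM in the 4-cell one and at 14.2 against 0.822 FPKM in the 8-cell one. The latter is the only 8-cell blastomere with Prkcz at or below FPKM 1. The counts are per gene and do not separate the transcripts of Prkcz that start within the gene.

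A complete Par complex at the RNA level was infrequent at the threshold of FPKM 1. At the median depths this threshold stood for 114 and 147 fragments of Pard3, and the sets were not counted at lower ones. Pard3, Pard6b and an atypical protein kinase C exceeded FPKM 1 together in 3 of 24 blastomeres (12.5%, 2.66% to 32.4%) and in 4 of 26 (15.4%, 4.36% to 34.9%). Counting any Par6 gene raised this to 6 of 24 (25%) and 5 of 26 (19.2%, 6.55% to 39.4%). In the libraries not poor in genes the counts were 3 of 20 and 4 of 20, and with any Par6 gene 6 of 20 and 5 of 20. Cdc42, the GTPase that activates the complex, was above FPKM 1 in every blastomere of both stages, with medians of 168 and 124 FPKM.

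**Figure D2:**
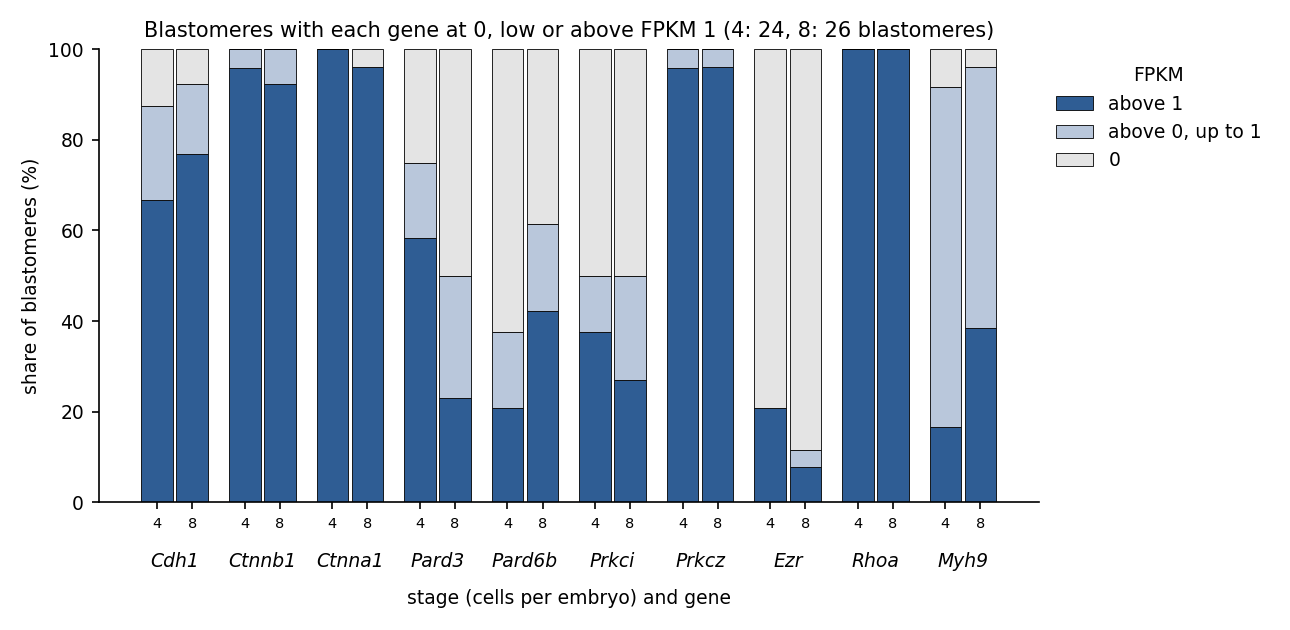
Stacked bars give the share of blastomeres, in percent, with a gene at 0, above 0 and up to FPKM 1, or above FPKM 1, for 24 4-cell (4) and 26 8-cell (8) blastomeres. Pard3 falls from 58.3% to 23.1% above FPKM 1, Pard6b goes from 20.8% to 42.3%, and Myh9 is the member with most blastomeres in the low class.

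Ezr encodes ezrin, the linker of membrane proteins to actin that marks the apical domain. It was at 0 in 19 of 24 4-cell and in 23 of 26 8-cell blastomeres. At the 4-cell stage the other 5 blastomeres had 1.32 to 5.90 FPKM, with none between 0 and 1, and at the 8-cell stage 2 were above FPKM 1, at 3.44 to 4.33 FPKM. The shares above FPKM 1 were 20.8% (7.13% to 42.2%) and 7.69% (0.946% to 25.1%), and without the libraries poor in genes the counts were 5 of 20 and 2 of 20. At the median depth 3 fragments of Ezr equal 0.0731 FPKM at the 4-cell and 0.0567 FPKM at the 8-cell stage, so a level of 1 FPKM would have been 41.0 and 52.9 fragments. These numbers concern sequencing depth only. Whether a 0 stands for absent RNA or for RNA lost before sequencing was not tested. Radixin led the family in most blastomeres: Rdx was the highest of the 3 genes in 20 of the 22 and 17 of the 19 blastomeres with their sum above FPKM 1. Rdx had medians of 9.18 and 6.49 FPKM, exceeded FPKM 1 in 20 of 24 and 19 of 26 blastomeres, and was higher than Ezr in 24 of 24 and 23 of 26. Msn, which encodes moesin, was above FPKM 1 in 3 blastomeres of each stage. At least 1 of the 3 genes was above FPKM 1 in 22 of 24 blastomeres (91.7%, 73.0% to 99.0%) and in 19 of 26 (73.1%, 52.2% to 88.4%), and without the libraries poor in genes in 19 of 20 and 18 of 20.

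Rhoa encodes a small GTPase that switches on formins. It was above FPKM 1 in all 50 blastomeres, with 64.4 to 388 FPKM and a median of 203 at the 4-cell stage, and 111 to 382 FPKM and a median of 221 at the 8-cell stage. The ranges overlapped, and the difference was 0.12 with spreads of 0.61 and 0.50 (SD). Rhoa was the steadiest of the members expressed at both stages, and only 6.96% of the genes expressed at the 4-cell stage and 7.08% of those expressed at the 8-cell stage had a smaller spread. Those genes differ in level.

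Myh9 encodes the heavy chain of non-muscle myosin IIA. It ran from 0 to 4.70 FPKM with a median of 0.235 at the 4-cell stage, and from 0 to 7.39 FPKM with a median of 0.438 at the 8-cell stage. Unlike Ezr it was seldom at 0, in 2 of 24 and 1 of 26 blastomeres, and 18 and 15 blastomeres lay above 0 and up to FPKM 1. The share above FPKM 1 was 16.7% (4.74% to 37.4%) and then 38.5% (20.2% to 59.4%), a change of 21.8 percentage points. Without the libraries poor in genes the counts were 4 of 20 and 7 of 20. Its relative Myh10, which encodes the heavy chain of myosin IIB, had medians of 4.19 and 7.72 FPKM. Myh9 was higher than Myh10 in 4 of 24 and 4 of 26 blastomeres, or 3 of 20 and 1 of 20 without the libraries poor in genes, and Myh10 made up a median of 88.8% and 96.6% of the summed FPKM of Myh9, Myh10 and Myh14.

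To show what lies upstream of members that behave differently, 250 bases before the annotated start are printed for Rhoa, present in every blastomere, Pard6b, present in a larger share of the 8-cell blastomeres, and Ezr, mostly at 0. They were taken from the RefSeq promoter table (GRCm38.p6, which underlies mm10) and run from 5′ to 3′ on the gene's strand. Capitals mark matches to GCCNNNGGC, a core of the AP-2 motif that Tfap2c binds. The motif GGAATG of TEAD factors was also searched, on both strands, and does not overlap the other motif.
Rhoa, chr9:108305910-108306159, plus strand: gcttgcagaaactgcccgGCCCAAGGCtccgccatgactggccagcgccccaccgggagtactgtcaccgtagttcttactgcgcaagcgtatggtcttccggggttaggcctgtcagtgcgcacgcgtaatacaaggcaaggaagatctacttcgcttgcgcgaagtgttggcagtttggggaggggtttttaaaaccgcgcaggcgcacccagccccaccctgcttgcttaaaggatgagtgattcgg
Pard6b, chr2:168080754-168081003, plus strand: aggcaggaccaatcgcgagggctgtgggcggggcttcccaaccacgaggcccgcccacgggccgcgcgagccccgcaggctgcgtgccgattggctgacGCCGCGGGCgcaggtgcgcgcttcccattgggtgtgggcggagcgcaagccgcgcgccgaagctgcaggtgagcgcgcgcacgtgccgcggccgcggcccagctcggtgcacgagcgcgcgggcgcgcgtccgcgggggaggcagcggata
Ezr, chr17:6782781-6783030, minus strand: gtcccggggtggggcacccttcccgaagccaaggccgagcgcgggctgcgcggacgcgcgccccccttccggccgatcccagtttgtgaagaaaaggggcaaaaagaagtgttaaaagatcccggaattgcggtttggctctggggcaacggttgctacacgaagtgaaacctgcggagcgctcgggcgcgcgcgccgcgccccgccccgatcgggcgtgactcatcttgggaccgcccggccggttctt
The printed windows of Rhoa and Pard6b hold 1 AP-2 match each, the window of Ezr holds none, and none of the 3 holds the TEAD motif. Rhoa has 2 windows in the table, of which the one at the upstream start is printed, and the other, chr9:108306547-108306796, holds 2 AP-2 matches. The G and C content of the printed windows was 58.8%, 77.6% and 67.2%, against a median of 52.4% over 32841 windows of all genes. Over the 8 members with an entry there were 13 windows, of which 8 held the AP-2 motif and 1, that of Prkci, the TEAD motif. Of all windows 13.7% held the AP-2 motif and 12.6% the TEAD motif, and among the 9177 windows with at least 60% G and C the AP-2 share was 30.3%. Of the 8 member windows with at least 60% G and C, 7 held the AP-2 motif, and some of these are windows of the same gene. A match is a description of the letters, and a window without one says only that these letters are not in it. The factors themselves were measured in both stages: Tfap2c had medians of 54.1 and 59.4 FPKM, and Tead4 of 47.1 and 70.6 FPKM, with differences of 0.13 and 0.57.

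The other genes of the pathways were taken from 5 lists of 102 genes, of which 91 were listed in both tables and 57 met the detection rule. Of these 10 were called higher and 5 lower at the 8-cell stage, where 9.71% and 18.2% of all genes examined were called, and their median difference was 0.00, beside −0.11 over all genes examined. Without the members the counts were 10 higher and 4 lower of 51. The count of higher genes was 5 when means of log2(FPKM+1) were compared, beside 8.22% of all genes, and 6 from the ratio of mean FPKM, beside 5.79%. It was 14 with a pseudocount of 0.1 and with quantile normalization, where 12.2% and 12.7% of all genes were called higher. The paragraphs on each list name the genes at both ends of the order.

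Among 10 examined genes of the cadherin and catenin junction, 2 were called higher and 1 lower, beside 9.71% and 18.2% of all genes examined. Zyx, whose product zyxin gathers at actin under tension, was at a median of 0 and then 3.30 FPKM (difference 2.11). Zyx was above FPKM 1 in 3 of 24 and 15 of 26 blastomeres. It met the detection rule only through its 8-cell values, which favours a rise. Nectin2, an immunoglobulin-like adhesion molecule, went from 1.10 to 3.24 FPKM (1.16), and Afdn, whose product afadin ties nectins to actin, from 1.12 to 2.66 FPKM (0.79). Epcam, an epithelial adhesion molecule, went from 28.9 to 9.92 FPKM (−1.45), and Vcl, which encodes vinculin, from 2.33 to 1.05 FPKM (−0.70). The p120-catenin gene Ctnnd1 had medians of 17.4 and 17.5 FPKM and was above FPKM 1 in 21 of 24 and 26 of 26 blastomeres.

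Of 15 examined genes of the apical and basolateral complexes 2 were called higher and 1, Pard3, lower, beside 9.71% and 18.2% of all genes examined. Amotl2, an angiomotin that binds junctions and restrains Yap, had the largest difference of all 57 genes, from a median of 0 to 7.51 FPKM, with 8 of 24 and 16 of 26 blastomeres above FPKM 1 (3.08). Mark1, a kinase of the Par1 group that opposes the Par3 complex, went from 0 to 1.32 FPKM (1.05), and Dlg1, a basolateral scaffold, from 0.265 to 1.39 FPKM (0.92). Amotl2, Mark1 and Dlg1 were among the examined genes only through their 8-cell values, which favours a rise. After Pard3 the lowest were Lin7c, a partner of the Crumbs scaffold, from 71.1 to 38.2 FPKM (−0.88), and Mark3, from 11.2 to 6.57 FPKM (−0.68). Crb3, a Crumbs protein, was above FPKM 1 in all 50 blastomeres, at medians of 151 and 119 FPKM.

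In the ezrin list 4 genes were examined, of which 1 was called higher and 1 lower, beside 9.71% and 18.2% of all genes examined, and the levels of Ezr and Msn were too low to be among them. Anxa2, which encodes an actin- and membrane-binding annexin, went from 0 to 3.46 FPKM (1.52). Stk10, a kinase that phosphorylates ezrin, radixin and moesin, went from 2.14 to 0.00995 FPKM (−1.63), and its relative Slk, outside the detection rule, from 0 to 0.741 FPKM. Anxa2 was among the examined genes only through its 8-cell values, which favours a rise. Stk10 was among them only through its 4-cell values, which favours a fall. Rdx (−0.45) and Nf2, which encodes merlin, at 15.5 and 14.8 FPKM (−0.06), were not called.

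Of 26 examined actomyosin genes and their regulators, the longest list, 5 were called higher and 2 lower, beside 9.71% and 18.2% of all genes examined. Arhgef1, an exchange factor that activates RhoA, went from 0.748 to 7.04 FPKM (2.25). Diaph1, a formin that RhoA activates, went from 0.065 to 2.25 FPKM (1.61), and Actg1, which encodes gamma-actin, from 63.4 to 154 FPKM (1.27). Rac1 (1.10) and Actn1, an alpha-actinin (1.07), were the other calls. Rnd3, which encodes an antagonist of RhoA signalling, went from 3.28 to 0 FPKM (−2.09) and was above FPKM 1 in 15 of 24 and 7 of 26 blastomeres. Ppp1r12a, the targeting subunit of myosin phosphatase, went from 11.4 to 3.52 FPKM (−1.45), and Myo10, an unconventional myosin, from 0.946 to 0 FPKM (−0.96).

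**Figure D3:**
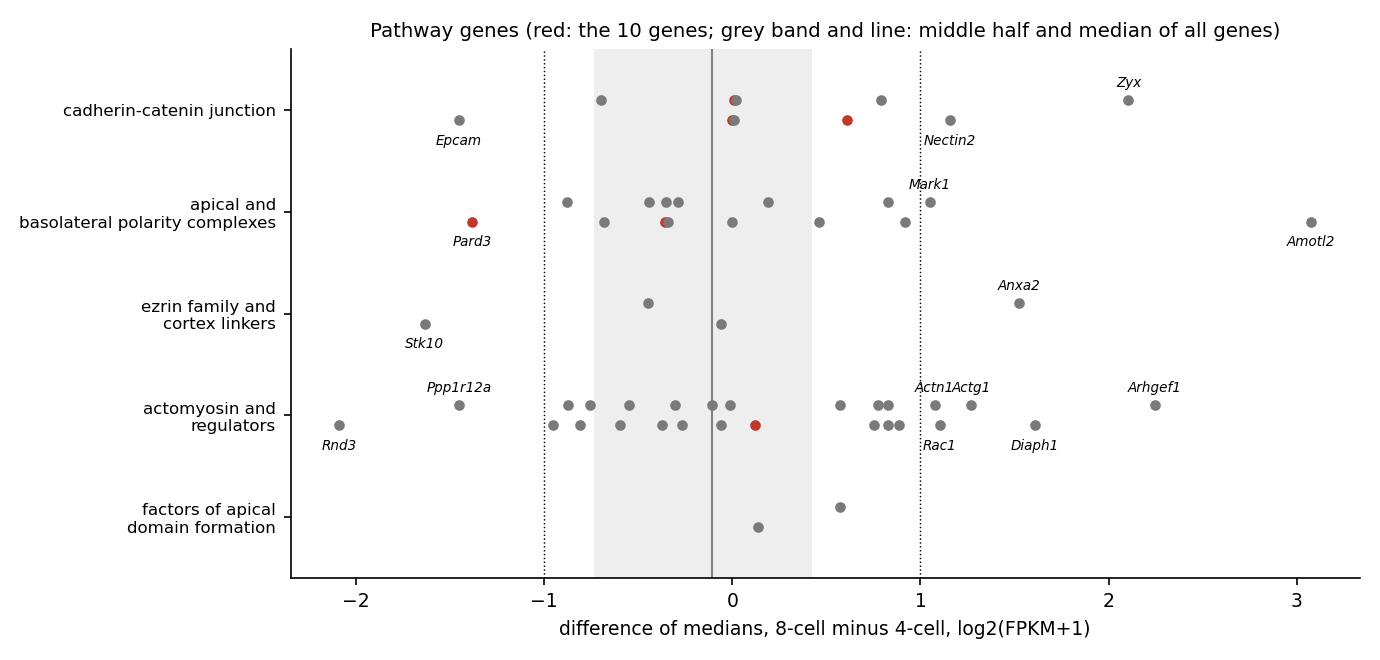
Each point is the difference of medians between the stages, 8-cell minus 4-cell, in log2(FPKM+1), for a gene that met the detection rule, arranged by list, with members in red. The grey band spans the middle 50% of all 7248 genes, −0.73 to 0.42, and the dotted lines mark a difference of 1 either way; Pard3 is the only red point outside them.

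Of 4 trophectoderm markers 2 met the detection rule, both only through their 8-cell values, which favours a rise. Both were called higher, beside 9.71% of all genes examined. These, Krt8 and Krt18, keratins of the outer cells, had medians of 0 at the 4-cell and of 43.3 and 29.8 FPKM at the 8-cell stage, Gata3 had 0 and 0.238 FPKM, and Cdx2 was listed at the 8-cell stage only, above FPKM 1 in 4 of 26 blastomeres. The summed level of the list was 0 to 89.5 FPKM and 0 to 322 FPKM. Its part in the member levels was not tested.

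The blastomeres held 3 to 9 of the 10 members above FPKM 1 at the 4-cell stage and 4 to 9 at the 8-cell stage, with a median of 6 at both. All 10 occurred together in 0 of 24 (up to 14.2%) and 0 of 26 (up to 13.2%) blastomeres. Its Spearman correlation with the number of genes above FPKM 1 was 0.61 over 24 blastomeres and 0.56 over 26. The 4-cell blastomere with 3 members held 3699 genes above FPKM 1, and had Ctnna1, Prkcz and Rhoa at 59.2, 8.63 and 64.4 FPKM. The 4-cell blastomere with 9 members lacked only Myh9, and the 8-cell one with 9 lacked only Ezr.

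**Figure D4:**
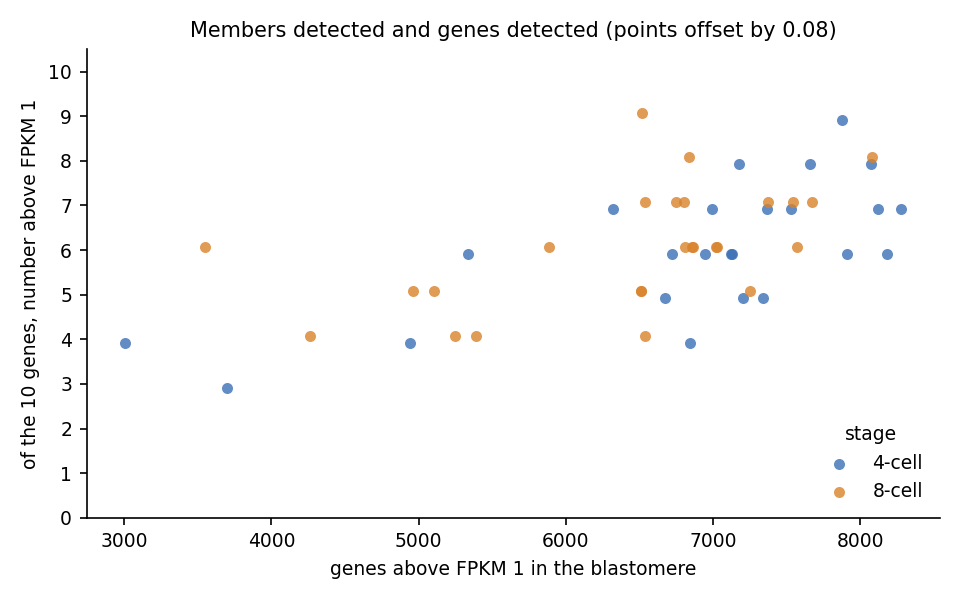
Each point is 1 blastomere, with the number of genes above FPKM 1 on the horizontal axis and the number of the 10 members above FPKM 1 on the vertical axis, for 24 4-cell (blue) and 26 8-cell (orange) blastomeres. Blastomeres with 8 or 9 members all hold 6517 genes or more, and the lowest point, with 3 members, holds 3699.

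Whether members varied together from cell to cell was described by Spearman correlations over the blastomeres of a stage. Blastomeres of 1 stage share embryos, and differ in depth and in number of genes, so no p-value is given. Over the 45 pairs of members the median correlation was 0.08 at the 4-cell stage, from −0.49 to 0.59, and 0.12 at the 8-cell stage, from −0.28 to 0.58. Over all pairs of the 6878 and 6325 genes expressed at each stage the median was 0.05 and 0.02, with the 5th to 95th percentile at −0.39 to 0.48 and −0.37 to 0.40. Outside these ranges lay 2 of the 45 member pairs at each stage. By Pearson correlation the members' median was 0.04 at the 4-cell stage, below the 0.11 over all pairs, and 0.11 at the 8-cell stage, where all pairs had 0.04. After a linear fit on the number of genes the Pearson correlation of the residuals had a median of 0.00249 for the members and 0.0112 for all pairs at the 4-cell stage, and of 0.06 and 0.00334 at the 8-cell stage. Without the libraries poor in genes the 8-cell median was −0.02 for the members and 0.01 for all pairs. The member pairs include members at low levels, and all pairs hold expressed genes only. Over the expressed members the Spearman median was −0.00307 at the 4-cell stage, below that of all pairs, and 0.12 at the 8-cell stage.

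The pair with the highest value at the 8-cell stage was Cdh1 with Ctnna1, at 0.58 over 26 blastomeres, while it was −0.32 over the 24 4-cell blastomeres. Leaving out 1 blastomere at a time kept it at 0.54 to 0.64 and at −0.40 to −0.26. Without the libraries poor in genes the 8-cell value was 0.46. The 8-cell Pearson correlation was 0.40, and 0.11 on residuals from the number of genes, whose part in the pair was not tested. Pard3 with Pard6b had 0.45 over the 8-cell blastomeres and −0.14 over the 4-cell ones, and Cdh1 with Ctnnb1 had 0.37 and 0.23, the former being 0.25 without the libraries poor in genes. At the 4-cell stage Cdh1 with Myh9 was highest, at 0.59, and Ctnna1 with Rhoa lowest, at −0.49, and at the 8-cell stage these pairs had −0.28 and 0.20, which became −0.02 and −0.06 without the libraries poor in genes and −0.35 and 0.51 without the 5 columns headed NA. Differences of correlation between the stages were not tested.

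**Figure D5:**
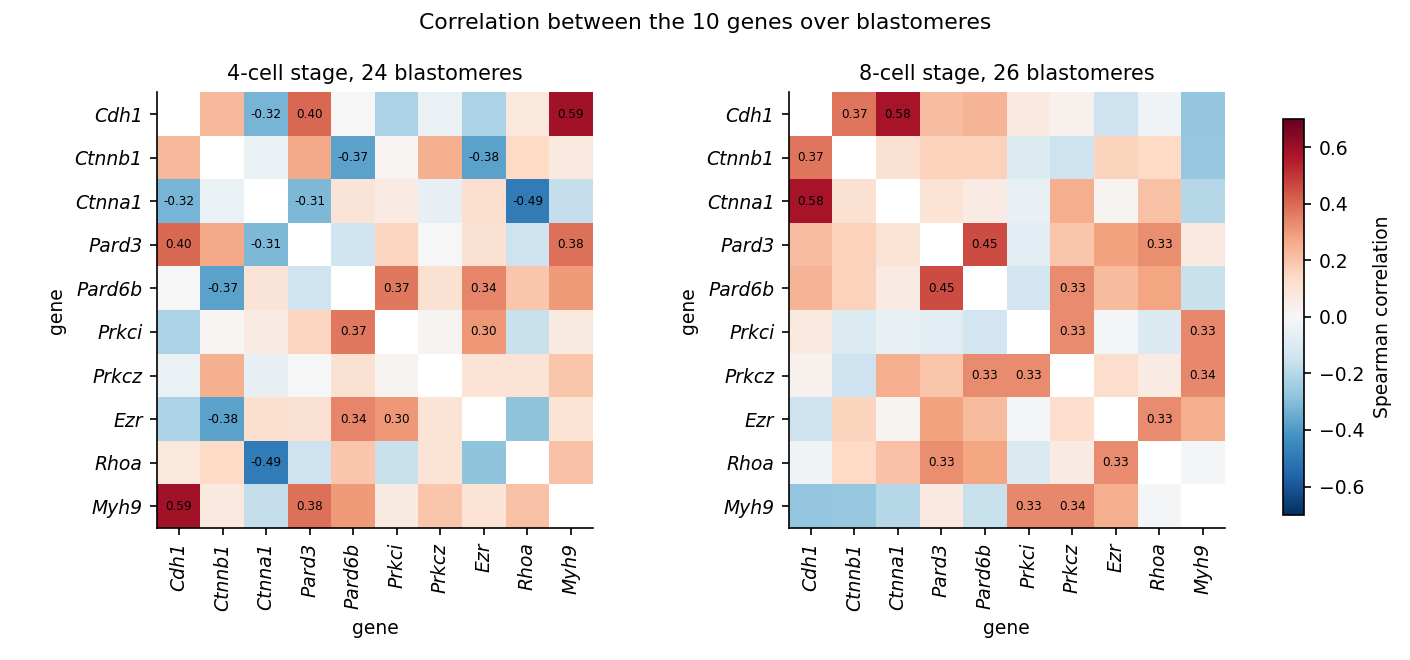
Colour gives the Spearman correlation for each pair of the 10 genes over 24 4-cell (left) and 26 8-cell (right) blastomeres, with the value printed where it is beyond 0.3 either way. Cdh1 with Ctnna1 goes from −0.32 to 0.58, and Cdh1 with Myh9 from 0.59 to −0.28, which is −0.02 without the libraries poor in genes.

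For the 5 members above FPKM 1 in at least 50% of the blastomeres of both stages, the most similar genes were sought among 5955 genes expressed at both, by the mean of the correlations at each stage. Cdh1 was nearest to 4930402H24Rik (mean correlation 0.55) and Rftn2 (0.55), Ctnnb1 to Nasp (0.56) and Nabp1 (0.54), Ctnna1 to Kif23 (0.61) and Arnt (0.56), Prkcz to Carhsp1 (0.52) and Snapc2 (0.50), and Rhoa to Dbt (0.68) and Eif3l (0.67). These are the top of 5955 values each, over 24 and 26 blastomeres.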

How the data were processed

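Single blastomeres were sequenced by Smart-seq2. Per the paper's methods, the authors aligned reads to mm10 with STAR 2.5.1b, kept uniquely aligned reads, counted them on Refseq genes with HTSeq and gave expression as FPKM. The deposited tables, 1 per stage, name no unit, and their values were taken as FPKM. Near-identical copies (Actb and Actg1, for example) can lose reads under this rule. Gene lengths and totals behind FPKM are not given in the sources used here. Of the 26 8-cell columns 5 are headed NA. The repeat tables were not used here.

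Identifiers were matched to RefSeq of GRCm38.p6 (15200 of 15218 and 15320 of 15342 found), and the list gene Nherf1 was not matched. No exon base of a member is shared with another curated gene. Fragments per blastomere were estimated from the value that 1 fragment gives in genes with 1 transcript, and at least 90.3% of low values then came within 0.1 of a whole number. Reads carry no molecular identifiers, so intervals cover counting error only. Statistics were computed with Python 3.11.15, numpy 2.4.6, pandas 2.3.3 and scipy 1.17.1 (exact Clopper-Pearson intervals), after tests on simulated data.

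Stages were compared by medians of log2(FPKM+1), pseudocount 1, with no test. Members and lists were chosen with earlier results of these data known. Named genes are the 10 members, up to 3 with the highest and 3 with the lowest difference of each list, and the 2 nearest each member expressed at both stages. Other genes named (relatives of a member, further calls, markers) were added for context after their values were seen. Alternatives were pseudocount, means, ratio of means, 2 scalings, thresholds and subsets of blastomeres.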

Additional observations from a re-analysis of the deposited data

How the results depend on the processing

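No paired analysis was possible because no column name holds a replicate number or matches a single sample. This holds for the names only. A match of columns to the paper's list of blastomeres by order and depth was not tested, so comparisons within embryos or between sister lineages were not made. The count of members called higher went from 0 to 1, Pard6b, with the ratio of mean FPKM, with quantile normalization (which lifts tied zeros) and without blastomeres below 0.8 times the median number of genes, the last chosen after seeing the data. The count called lower went from 1 to 0 with means of log2(FPKM+1), the ratio of mean FPKM and quantile normalization. Pathway genes called higher went from 10 to 5 with means and 6 with the ratio of means, and to 14 with a pseudocount of 0.1 and with quantile normalization and 13 without the 8-cell blastomere with the fewest fragments, and those called lower from 5 to 8 with a pseudocount of 0.1 and to 3 with means and with quantile normalization. Of all genes, 420 in place of 704 were called higher and 692 in place of 1316 lower with the ratio of means, 596 and 879 with means, and 881 and 1571 with a pseudocount of 0.1. Quantile normalization changed the split to 908 higher and 1048 lower, and moved the median difference of all genes from −0.11 to 0.01.

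The median correlation between members, 0.08 at the 4-cell stage, was 0.0393 by Pearson correlation, 0.00249 by Pearson correlation of residuals from the number of genes, −0.00307 over expressed members only and 0.0211 without blastomeres below 0.8 times the median number of genes. At the 8-cell stage, 0.12 became 0.106 by Pearson correlation, 0.062 by Pearson correlation of residuals, 0.19 without the columns headed NA and −0.0195 without those blastomeres. Leaving out 1 blastomere at a time gave 0.02 to 0.10 and 0.09 to 0.16. The causes were not tested. The difference of Pard3 kept its sign under these alternatives, from −4.03 with a pseudocount of 0.1 to −0.76 with means. Of 40 shares at FPKM 0.1 or 5, 12 left the interval of the share at FPKM 1. At the median 4-cell depth FPKM 1 stood for 32.8 fragments of Rhoa and 114 of Pard3, and libraries with fewer fragments reached less far down. The planned comparison of atypical protein kinase C proteins was not run.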
